A study of Trametes elegans with 15 samples.

Results

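The growth of the white-rot fungus Trametes elegans on wheat straw was compared with its growth on crystalline cellulose, over all 949 genes of the deposited table of normalised log2 read counts. All 949 listed genes belong to the comparison, which for each gene is the straw column minus the cellulose column. The fungus, strain BRFM 1663 (Artolenzites elegans in the sample titles), was shaken for 3 days at 30 °C. The straw medium held ground and sifted wheat straw at 15 g/l, in pieces under 2 mm, and the cellulose medium held Avicel, a microcrystalline cellulose, at 15 g/l. Both media also held 2.5 g/l of maltose, a soluble disaccharide, and the same salts, yeast extract and thiamin, so by the labels the solid was the only difference between them. Poly(A) RNA of the frozen mycelium, with the solid left in it, was sequenced on an Illumina HiSeq 2500. The series lists 15 mycelium samples of this 1 strain, 3 per medium. The other media, used here only for reference, were maltose alone at 20 g/l and pine or aspen wood at 15 g/l with maltose. The amount of maltose given for aspen cannot be read.

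Straw is a whole grass tissue. Its cell walls hold cellulose fibres within a matrix of xylan, to which ferulic and other phenolic acids are esterified, with lignin, some pectin, mineral silica, protein and waxes. Avicel offers purified cellulose only. White-rot fungi secrete cellulases and lytic polysaccharide monooxygenases against cellulose, xylanases and esterases against the matrix, and peroxidases and laccases against lignin. The transcription of many such enzymes in fungi is raised by soluble sugars released from the substrate and lowered by readily used sugars. The deposited table identifies genes by number and pairs no number with a function, so the genes below could not be sorted into these families and their roles are not stated.

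Levels are given as log2(normalised reads + 1), as deposited per medium or as recovered per library, so a difference of 1 is a 2-fold change. Normalised reads were not divided by gene length, and levels of different genes are therefore not compared. Whole reads per library could be recovered from the decimals of the deposited means for 3 cellulose libraries, named a, b and c, and for 2 straw libraries, named a and b. The straw values rest on 2 libraries although 3 samples are listed. Letters follow the libraries' scaling factors and match no replicate number. In these 5 libraries 1 read was worth 1.00 to 1.08 normalised counts. They held 642108, 667039 and 597996 reads on cellulose and 1143780 and 872832 on straw over the 777 genes recovered on every medium. Within a medium the libraries were farther apart than counting noise alone would place them. The chi-square divided by its degrees of freedom was 96.2 between the straw libraries and 6.76, 25.7 and 27.4 between pairs of cellulose libraries, so each library was counted as 1 sample. The straw value is over 942 genes, with those at 13 or more, and the cellulose values over 823 to 825 genes without them. Straw and cellulose values are therefore not compared. Over tested genes the median standard deviation between libraries was 0.13 on straw (2 libraries) and 0.17 on cellulose (3 libraries). Whether replicates came from separate cultures is not labelled. The p-values below therefore measure only the spread between libraries, which may be technical. That spread is pooled over the recovered libraries of all 5 media, so it does not rest on straw and cellulose alone.

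More listed genes were higher on straw than were lower. By deposited difference alone, 197 of 949 genes (20.8%) were at least 2-fold higher on straw and 105 (11.1%) at least 2-fold lower, while 441 lay within 0.5 of equal. At least a 4-fold difference was found for 82 genes higher on straw (8.64%) and 42 lower (4.43%). The median difference was 0.12, the quartiles were -0.38 and 0.78, and the range ran from -6.95 to 9.64.

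**Figure D1:**
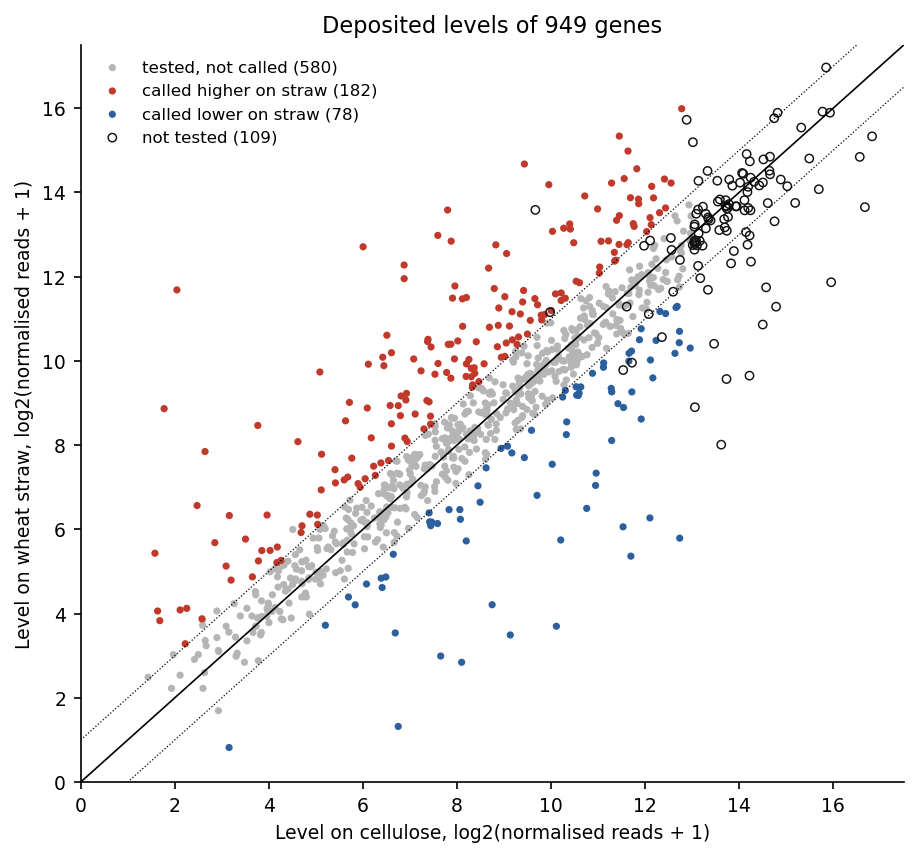
Deposited level of each of 949 genes on wheat straw (vertical axis) against crystalline cellulose (horizontal axis), both as log2(normalised reads + 1). The solid line marks equality and the dotted lines a 2-fold difference. The 182 red points are genes called higher on straw, the 78 blue points genes called lower, the grey points genes tested and not called, and the 109 open points genes not tested, most of them at 13 or more on cellulose.

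For 840 genes the reads of all 5 libraries were recovered, and the difference was tested with limma over the 14 libraries of the 5 media. A call needed a log2 difference of 1 or more in size together with an adjusted p under 0.05. Of the 840 genes, 182 (21.7%) were called higher on straw and 78 (9.29%) lower, with median differences of 1.89 and -1.70. In all 260 called genes every straw library lay outside the range of the cellulose libraries, which held for 595 of the 840 tested genes. A further 27 genes had an adjusted p under 0.05 with a difference from 0.9 to just under 1, and 20 called genes lay between 1 and 1.1, so the counts depend on where the line is drawn. Without the minimum difference limma called 492 genes, 308 higher and 184 lower.

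Both the choice of tested genes and the scaling bear on this balance. Reads at a level of 13 or more were recovered on straw but not on cellulose, and 95 of the 109 untested genes lay at 13 or more on cellulose. Of those 109 genes, 26 were at least 2-fold lower on straw and 9 higher, the opposite of the tested genes. Most were left out for a high cellulose level, which favours genes lower on straw, so this contrast is a description. Higher genes made up 70.0% of the called genes but 65.2% of all listed genes past 2-fold. Centring each library on its own median lowered every straw minus cellulose difference by 0.35, and the called genes were then 130 higher and 123 lower (51.4% higher). After quantile normalisation they were 137 and 112 (55.0% higher). Centring on the median difference from the gene means lowered differences by 0.13 and gave 163 and 95 (63.2% higher). All 78 genes called lower kept their call under these 3 scalings, as did 123 of the 182 called higher, and none of the 260 changed sign.

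Deposited levels, which are means on the log scale, were also turned back to normalised reads and summed over the listed genes. Of that sum, the genes at least 2-fold higher on straw made up 38.3% on straw and 10.6% on cellulose. The same genes made up 20.2% on aspen, 16.3% on pine and 5.70% on maltose. The genes at least 2-fold lower on straw made up 7.47% on straw, 31.3% on cellulose, 19.6% on maltose, 14.4% on aspen and 8.26% on pine. These genes were picked on straw and cellulose, so their shares there are a description.

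The largest difference was that of gene 815362, which was all but silent on cellulose. Its straw libraries lay at 12.35 and 11.02 and its cellulose libraries at 1.62, 2.86 and 1.66, where they held 10 reads in all against 7171 on straw. It was also low on maltose (1.96) and pine (2.78) and intermediate on aspen (5.30). The difference was 9.64 (SE 0.44, limma adjusted p = 2.77e-10). The straw libraries differ by more than 1 from each other here, and the difference was 8.97 when a was left out and 10.30 when b was. With 5 in place of 1 added to the normalised reads it was 8.64.

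Gene 806789 had the second largest difference. It was at 9.15 and 8.58 on straw and at 2.63, 1.03 and 1.66 on cellulose, with 927 and 8 reads. Gene 815752 was at 7.68 and 8.01 on straw and at 3.64, 2.63 and 1.66 on cellulose, with 447 and 18 reads. For these genes straw and cellulose libraries were far apart, and the cellulose libraries were spread over more than 1 log2 unit. Both were higher on maltose, at 5.03 and 5.40, than on cellulose, and lay at 1.13 and 0.33 on pine. Their differences were 7.09 (SE 0.63, limma adjusted p = 1.6e-07) and 5.20 (SE 0.50, limma adjusted p = 3.8e-07). With a pseudocount of 5 they were 5.95 and 4.46. Of the 182 genes called higher on straw, 29 were at a level under 5 on cellulose, against 121 of the 949 listed genes.

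Other large differences came from genes with more reads on cellulose. Gene 393484 was at 12.95 and 12.47 on straw and at 6.01, 6.01 and 6.0 on cellulose, a 104-fold difference. Gene 878148 was at 13.70 and 13.46 on straw and at 7.68, 7.93 and 7.79 on cellulose, a 55.0-fold difference. Gene 820978 was at 13.21 and 12.75 on straw and at 7.57, 8.20 and 7.01 on cellulose. In all of these the groups were at least 4 log2 units apart at their nearest libraries. By limma 393484 differed by 6.71 (SE 0.20, adjusted p = 2.64e-12), 878148 by 5.78 (SE 0.12, adjusted p = 5.06e-14) and 820978 by 5.39 (SE 0.25, adjusted p = 3.15e-10). After quantile normalisation 878148 differed by 5.0 and 820978 by 4.75. On the other 3 media these genes lay far below straw, at 5.70 to 8.17 for 393484, 7.88 to 9.12 for 878148 and 5.95 to 9.36 for 820978.

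Genes 806408, 873086 and 808921 followed a graded pattern, with cellulose above maltose and straw above cellulose. Gene 806408 was at 11.85 and 12.70 on straw, at 6.78, 6.85 and 7.0 on cellulose, and at 4.42 on maltose. Gene 873086 was at 14.99 and 14.36 on straw, at 9.47, 9.51 and 9.32 on cellulose, and at 5.18 on maltose. Gene 808921 was at 11.92 and 11.98 on straw, at 7.20, 6.63 and 6.81 on cellulose, and at 3.77 on maltose. Their straw minus cellulose differences by limma were 5.40 (SE 0.47, adjusted p = 1.47e-07) for 806408, 5.24 (SE 0.21, 8.46e-11) for 873086 and 5.07 (SE 0.52, 7.6e-07) for 808921. That of 873086 was 4.03 after quantile normalisation. Gene 237425 was graded likewise, at 5.08 on maltose. Unlike the others, it was nearly as high on aspen, at 12.49, as on straw, where its libraries were at 12.67 and 13.02. Its cellulose libraries were at 8.47, 8.23 and 6.93 and its difference was 4.97 (SE 0.32, limma adjusted p = 6.08e-09).

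**Figure D2:**
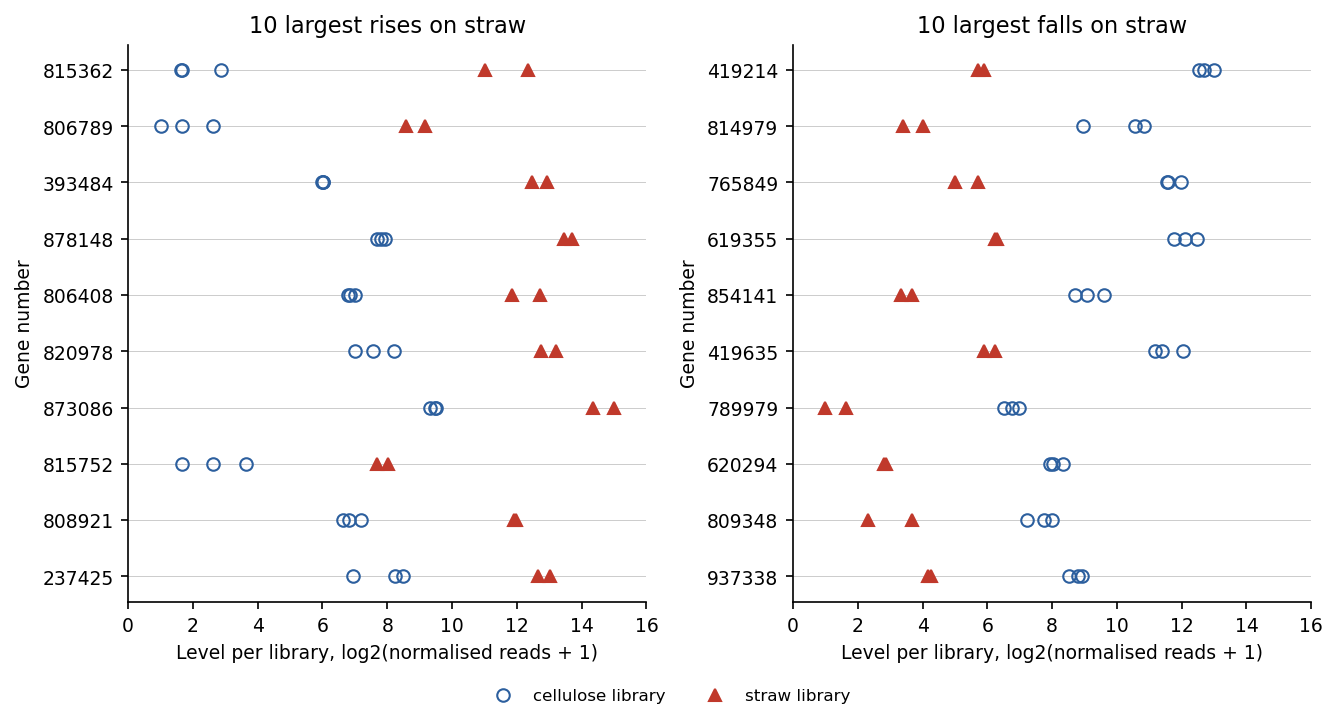
Level in each recovered library, as log2(normalised reads + 1), of the 10 genes with the largest rise and the 10 with the largest fall among the genes called. Triangles are the 2 straw libraries and open circles the 3 cellulose libraries. In each of the 20 genes the triangles and circles stand apart, which the choice of these genes required. The circles of 815362, 806789, 820978, 815752, 237425 and 814979 are spread over more than 1 log2 unit.

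Among genes lower on straw, 419214 had the largest difference. It was at 12.69, 12.99 and 12.53 on cellulose and at 5.89 and 5.70 on straw, 123-fold lower there. Its levels on maltose (6.96), pine (6.46) and aspen (6.62) were close to that on straw, so the cellulose libraries alone were high. Gene 619355 was likewise highest on cellulose and lowest on straw, at 12.09, 12.47 and 11.75 on cellulose and 6.23 and 6.31 on straw. It was at 6.81 to 7.92 on the remaining media. Gene 419635 was at 11.40, 12.03 and 11.16 on cellulose, at 6.23 and 5.89 on straw, and at 6.75 to 8.29 on the remaining media. The differences were -6.95 (SE 0.20, limma adjusted p = 1.75e-12) for 419214, -5.83 (SE 0.25, 1.55e-10) for 619355 and -5.47 (SE 0.21, 4.14e-11) for 419635.

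Gene 765849 was at 11.53, 11.57 and 11.99 on cellulose and at 5.0 and 5.73 on straw, and at 3.33 on pine it was lower still. Gene 814979 was at 10.55, 10.85 and 8.94 on cellulose and at 4.0 and 3.40 on straw. Cellulose library c was more than 1 log2 unit below the others for this gene, and without it the difference moved from -6.41 to -7.0. On aspen 814979 was at 9.07, nearer to cellulose than to straw. Limma gave -6.33 (SE 0.34, adjusted p = 1.14e-09) for 765849 and an SE of 0.54 (adjusted p = 1.02e-07) for 814979.

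The remaining large falls were of genes with few reads on straw. Gene 854141 held 20 reads on straw, at 3.32 and 3.66, and was at 9.08, 9.61 and 8.72 on cellulose. Gene 620294 held 12 reads on straw, at 2.81 and 2.88, and was at 7.92, 8.34 and 8.04 on cellulose, 0.33 on pine and 2.13 on aspen. Gene 937338 held 34 reads on straw, at 4.17 and 4.25, and was at 8.79, 8.92 and 8.53 on cellulose. The groups did not overlap in these genes, which the choice of the largest falls required. Limma gave -5.64 (SE 0.39, adjusted p = 1.25e-08) for 854141, -5.26 (SE 0.34, 6.58e-09) for 620294 and -4.54 (SE 0.35, 4.34e-08) for 937338. The difference of 620294 was -4.64 with a pseudocount of 5. Gene 789979 held 3 reads over the straw libraries and 306 over the cellulose libraries. Allowing for the number and scaling of the libraries, the ratio of cellulose to straw was 69.6. Its 95% exact binomial interval of 23.6 to 339 covers counting error only. Per library, limma gave -5.43 (SE 0.44, adjusted p = 6.18e-08), a 43.1-fold difference. With a pseudocount of 5 the difference was -4.10. The level of 789979 on pine was 0.

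Gene 809348 was lower on straw than on cellulose and higher on maltose than on either. It was at 11.79 on maltose, at 7.76, 7.99 and 7.21 on cellulose, and at 2.32 and 3.66 on straw, where it held 15 reads. Pine and aspen levels, 4.24 and 2.83, were near that on straw. The straw minus cellulose difference was -4.66 (SE 0.39, limma adjusted p = 9.74e-08). It was -3.99 without straw library a, -5.33 without b and -4.07 with a pseudocount of 5. Of the 78 genes called lower on straw, 15 were at a level under 5 there, against 104 of the 949 listed genes.

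Genes with many reads took part in the difference in both directions. Among those called higher, 501365 was at 16.46 and 15.52 on straw and at 12.72, 12.88 and 12.74 on cellulose, a 9.25-fold difference. Gene 848748 was at 15.88 and 14.79 on straw and at 11.46, 11.68 and 11.22 on cellulose, a 14.8-fold difference. Gene 873081 was at 15.27 and 14.69 on straw and at 11.74, 11.61 and 11.56 on cellulose, a 10.2-fold difference. In all of these, and in 873086, straw library a was above b, and both were above every cellulose library. All 4 were graded in the same way, with 4.82 to 6.36 on maltose, below their levels on cellulose and on aspen. Limma gave 3.21 (SE 0.22, adjusted p = 1.37e-08), 3.89 (SE 0.26, 9.15e-09) and 3.34 (SE 0.21, 5.1e-09) for 501365, 848748 and 873081. After quantile normalisation the difference of 501365 was 0.74, no longer a call, and those of 848748 and 873081 were 2.24 and 1.90. That scaling equates the ranges of the 2 media over tested genes, which run to 15.99 on straw but stop at 12.98 on cellulose.

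Gene 873101 was higher on straw than on cellulose, at 14.33 and 14.79 against 12.10, 12.06 and 11.31, but was higher still on aspen (15.93) and pine (17.27). Its difference was 2.74 (SE 0.22, limma adjusted p = 1.14e-06) and was 1.48 after quantile normalisation.

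Among genes called lower, the most reads on cellulose belonged to 911219, at 12.94, 12.86 and 13.09 there and 10.15 and 10.46 on straw. Its level was 12.53 on maltose, 7.58 on aspen and 5.75 on pine. Gene 776623 was at 12.47, 12.73 and 12.99 on cellulose and at 10.56 and 10.84 on straw. Gene 766855 was at 12.75, 12.85 and 12.59 on cellulose and at 10.17 and 10.70 on straw. Gene 873519 was at 12.73, 12.81 and 12.51 on cellulose and at 11.20 and 11.39 on straw. The groups were apart in all 4, and limma gave -2.66 (SE 0.22, adjusted p = 7.1e-08) for 911219, -2.03 (SE 0.14, 1.69e-08) for 776623, -2.30 (SE 0.17, 3.52e-08) for 766855 and -1.39 (SE 0.12, 1.5e-07) for 873519. That of 911219 was -3.35 after quantile normalisation.

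Of the 109 genes not tested, 10 were at least 4-fold lower on straw by deposited difference and 3 at least 4-fold higher. The 5 with the largest difference, whose cellulose reads were not recovered, were all lower on straw. Gene 814419 was at 13.62 on cellulose and at 8.25 and 7.78 in the straw libraries, and was at 14.66 on maltose. Gene 620903 was at 14.22 on cellulose and at 9.68 and 9.61 on straw. Gene 809339 was at 13.73 on cellulose, at 9.59 and 9.55 on straw and at 15.19 on maltose. Their deposited differences were -5.61, -4.57 and -4.16, with no error for cellulose. Gene 760789 was at 13.06 on cellulose and at 8.65 and 9.15 on straw, a difference of -4.16. Gene 772128 was at 15.96 on cellulose and at 11.54 and 12.19 on straw, a difference of -4.09, and was lower again on aspen (8.94) and pine (8.23). Both straw libraries lay below the cellulose mean in all 5, which is a description, since the genes were picked for the size of this difference.

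**Figure D3:**
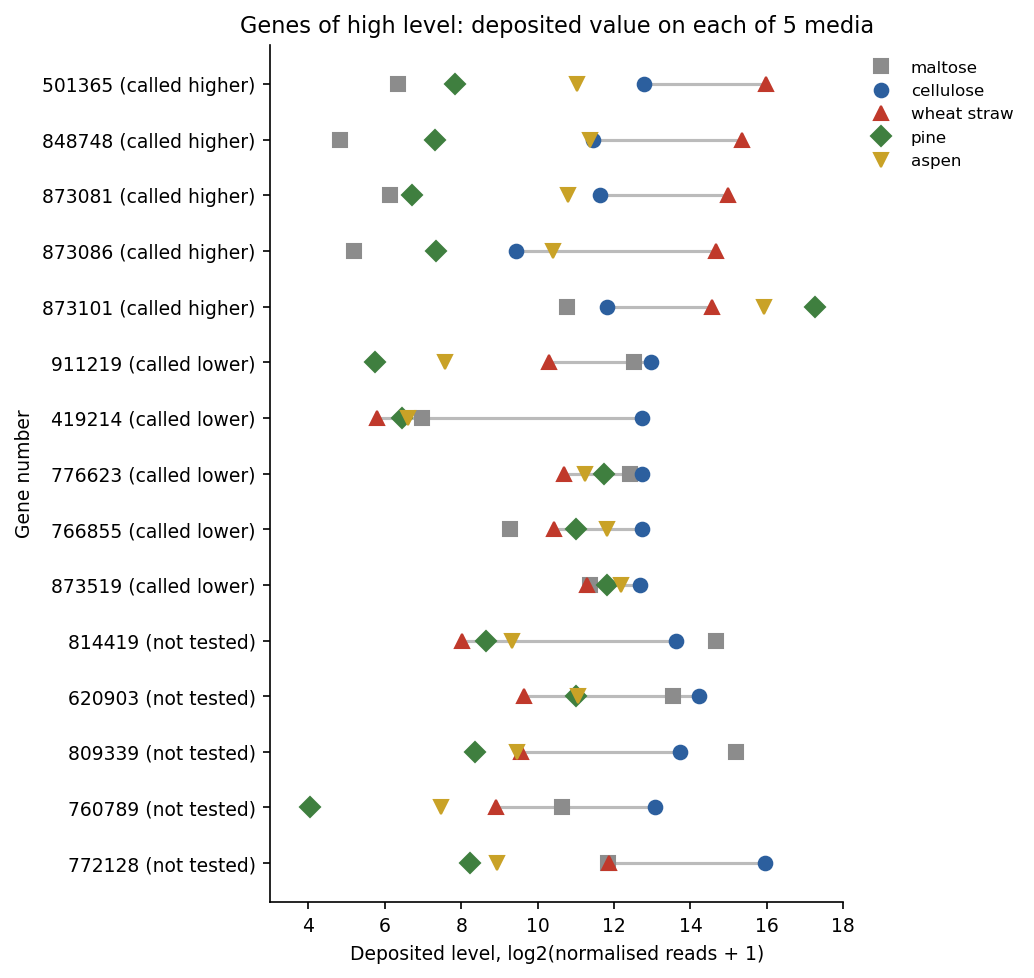
Deposited level of 15 entries on each of 5 media, as log2(normalised reads + 1): the 5 genes called higher with the most reads on straw, the 5 called lower with the most reads on cellulose, and the 5 untested genes with the largest difference. A grey line joins cellulose (circle) and straw (upward triangle). For the genes called higher, 4 of 5 upward triangles are the rightmost symbol in the row, while 873101 is higher on both woods.

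Some genes with many reads had a difference under 0.1 that did not pass the test with the deposited scaling. Under the other scalings its size changed, and for 848704 and 815445 its sign did too. Gene 752727 was at 12.37 and 12.43 on straw and at 12.42, 12.46 and 12.47 on cellulose. Gene 816215 was at 12.15 and 12.24 on straw and at 12.24, 12.23 and 12.34 on cellulose. Gene 848704 was at 13.02 and 13.04 on straw and at 13.01, 12.78 and 13.12 on cellulose. At least 1 straw library lay within the cellulose range in each, and limma gave -0.05 (SE 0.10, adjusted p = 0.68) for 752727, -0.08 (SE 0.10, 0.517) for 816215 and 0.06 (SE 0.11, 0.661) for 848704. For 872851 and 815445 they were -0.10 (SE 0.19, limma adjusted p = 0.677) and 0.03 (SE 0.14, 0.859). The differences of the 5 genes ran from -0.44 to -0.28 with each library centred on its own median. There the limma adjusted p was 0.016 for 752727, 0.011 for 816215 and 0.076 to 0.16 for the others. After quantile normalisation the differences ran from -0.996 to -0.24. The limma adjusted p was then 0.0002 for 752727, 0.0027 for 816215, 0.0165 for 872851, 0.0021 for 848704 and 0.199 for 815445. No difference reached the size of 1 needed for a call.

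Most genes called higher on straw had their highest level there, and most genes called lower had theirs on cellulose. Of the 182 genes called higher on straw, 119 had their highest level of all 5 media on straw, 36 on aspen, 15 on pine and 12 on maltose. Their lowest level fell on maltose for 95 genes, on pine for 45, on cellulose for 35 and on aspen for 7. Over all 949 listed genes straw was highest for 228, aspen for 189, pine for 191 and maltose for 168. Maltose was lowest for 313 of them, pine for 237, cellulose for 156 and aspen for 121. Median levels of the 182 genes were 6.83 on maltose, 7.39 on pine, 7.99 on cellulose, 8.96 on aspen and 10.36 on straw. For 77 of them straw was at least 1 above every other medium, against 85 of the 949 listed genes. Of the 182, 10 were at least 1 higher on each of the other 4 media than on cellulose, against 10 of the 949 listed genes.

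The 78 genes called lower on straw had another pattern. Cellulose was the highest of the 5 media for 56 of them and maltose for 19, against 173 and 168 of the 949 listed genes. Straw was the lowest for 22, pine for 32, maltose for 17 and aspen for 7, against 122, 237, 313 and 121 of the listed genes. Median levels were 10.33 on cellulose, 8.18 on maltose, 7.91 on aspen, 7.76 on straw and 7.07 on pine. For 29 of the 78 genes cellulose was at least 1 above every other medium, and for 6 straw was at least 1 below every other medium. Over the listed genes these counts were 41 and 9. The levels on the woods lay nearer to the straw value than to the cellulose value for 67 genes on pine (85.9%) and 59 on aspen (75.6%). These shares were 51.3% and 53.1% over the whole table. Among the 182 genes called higher on straw they were 30.2% on pine and 46.7% on aspen, and maltose was nearer to straw for 18.1%, against 42.7% over all listed genes. Genes picked for a high or low value on 1 medium tend to look set apart on it, so these counts are descriptions.

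**Figure D4:**
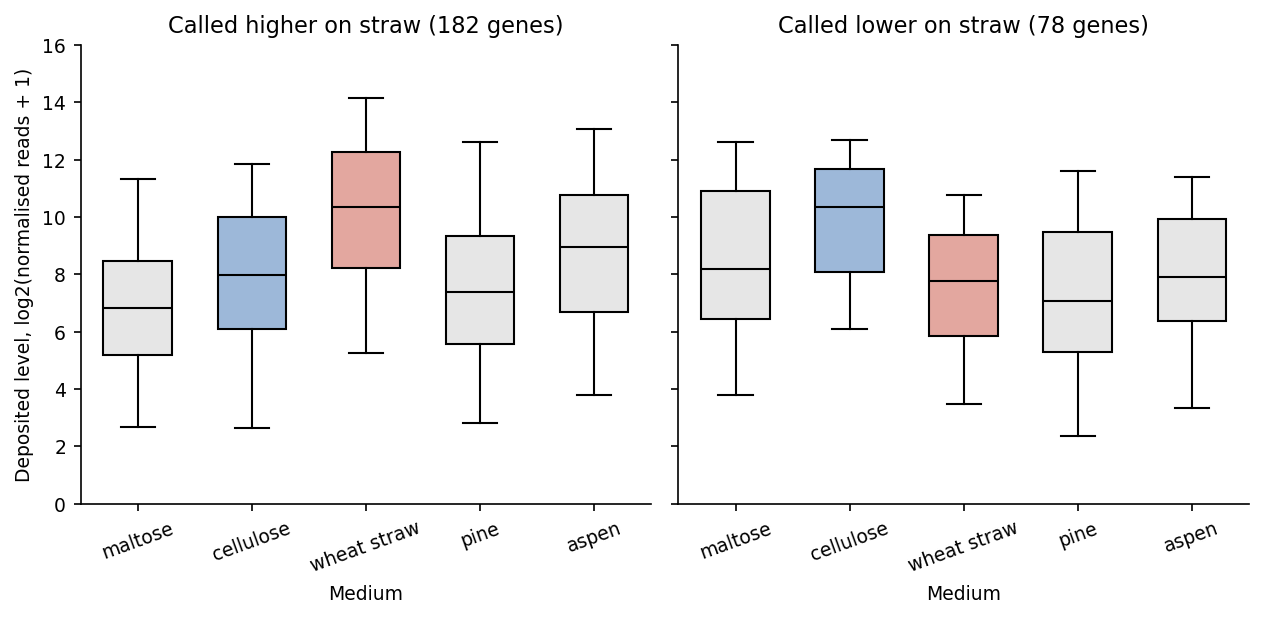
Deposited levels, as log2(normalised reads + 1), of the 182 genes called higher and the 78 called lower on straw, on each of 5 media. Boxes span the quartiles with the median as a line, and whiskers run from the 5th to the 95th percentile of genes. Straw has the highest median on the left, 10.36, and cellulose the highest on the right, 10.33, while aspen lies between cellulose and straw on the left.

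The comparisons of each wood with maltose use none of the straw or cellulose libraries, although limma's spread per gene is shared. Of 790 genes tested in both, 153 (19.4%) were called higher on pine than on maltose and 141 (17.8%) lower. Of the genes called higher on straw than on cellulose, 171 were among these 790. Of the 171, 60 (35.1%) were higher on pine than on maltose and 31 (18.1%) lower. The 60 made up 39.2% of the genes higher on pine. Of 73 genes called lower on straw, 30 (41.1%) were lower on pine than on maltose and 9 (12.3%) higher, and the 30 made up 21.3% of the genes lower on pine.

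For aspen against maltose, 789 genes were tested in both, of which 224 (28.4%) were higher on aspen and 104 (13.2%) lower. Of 165 genes called higher on straw, 91 (55.2%) were higher on aspen than on maltose and 20 (12.1%) lower. The 91 made up 40.6% of the genes higher on aspen. Of 74 genes called lower on straw, 24 (32.4%) were lower on aspen than on maltose and 20 (27.0%) higher, and the 24 made up 23.1% of the genes lower on aspen. The median change on aspen was 1.24 for the genes higher on straw and -0.28 for those lower, beside 0.31 over the 789 genes. On pine these medians were 0.57, -0.78 and 0.05.

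The difference between the straw libraries moved with the straw minus cellulose difference. Straw library a was above b for 122 of the 182 genes called higher on straw and for 27 of the 78 called lower, against 465 of the 840 tested. The median of a minus b was 0.13 for the genes called higher, -0.13 for those called lower and 0.04 over tested genes. By these medians library a lay farther from cellulose than b in both directions. The straw libraries were at least 1 apart in 7 of the 182 genes called higher and 3 of the 78 called lower, against 25 of the 840 tested. Without library a, 170 genes were called higher and 79 lower, and without library b, 184 and 80. Cellulose library c was at least 1 from the mean of the other cellulose libraries in 12 genes called higher and 4 called lower, against 34 of the 840 tested. Without it 175 genes were called higher and 91 lower. What sets library a or c apart was not tested.

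**Figure D5:**
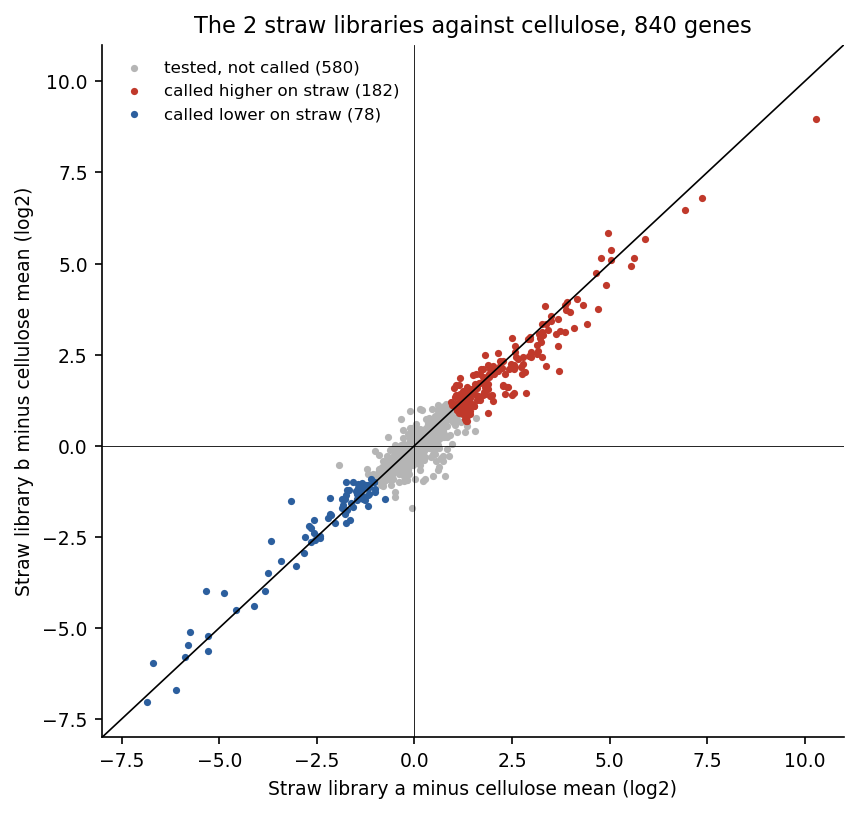
Log2 difference of straw library b from the cellulose mean (vertical axis) against that of straw library a (horizontal axis) for 840 tested genes, with the line of equality. Both libraries place every called gene on the same side of 0, and 122 of the 182 red points lie below the line, where library a is the higher.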

How the data were processed

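The authors deposited 1 table of normalised log2 read counts, 1 value per medium, per the file headers. TopHat2, HTSeq and DESeq 1.5 appear in the submitters' processing notes, with no role stated. Gene numbers are those of the Artel1 pages of the JGI MycoCosm portal, per the file headers, which do not name the genome build used for alignment. Lists of enzyme families could not be matched to gene numbers, and the third straw sample was not analysed here. Members and lists were chosen with earlier results of these data known.

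Each deposited value was decoded as a mean of log2(reads x factor + 1) over 3 libraries, or 2 for straw, accepting whole reads within 4e-14 (natural log) for levels under 10 and within 1.6e-13 for higher ones. Of 4745 values, 4345 gave exactly 1 set, including 2564 of 2564 below level 9, where 0 decoys shifted by 1e-06 gave any. From level 9 to 13, 1675 of 1741 did and 52 decoys gave a set, all of them on media with 3 libraries, so a few reads there can be wrong. On those media 333 values at 13 or more were not searched. Reads recovered per straw or cellulose library ranged from 815406 to 3228840, which is part of the depth. The lower value is over 840 genes recovered on cellulose and the upper over 948 recovered on straw. They therefore do not compare depth.

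The design of the tests named limma for values per library. Limma 3.58.1 in R 4.3.3 used log2(normalised reads + 1), 1 mean for each medium, a trend of spread with level, and Benjamini-Hochberg adjustment over 840 genes, and was tested on simulated data. Named genes were the 10 largest rises and falls without overlap, the 5 called each way of highest level, the 5 largest untested differences and 5 uncalled genes of highest mean level within 0.1. Alternatives were 3 scalings, a pseudocount of 5, a filter, fewer libraries, no trend and no minimum difference.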

Additional observations from a re-analysis of the deposited data

How the results depend on the processing

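The count of genes called lower on straw was 78 as reported and 123 with every library centred on its own median, which lowers every difference. Dropping the minimum difference gave 492 calls, 308 higher and 184 lower. Keeping only genes below level 9 on both media, where decoding found no decoy sets, gave 84 calls, 57 higher and 27 lower, since fewer genes were tested; this alternative was chosen after seeing the data. All other settings for these counts, and for the counts by size and the median difference, stayed within 1.5 times or within the spread between libraries. With 1 library left out the calls numbered 249 to 266. Of the 182 genes called higher, 150 kept their call with each straw and cellulose library left out in turn, and of the 78 lower, 69. With 1 straw library left, its spread is assumed to match the other media. With straw and cellulose libraries only, 258 genes were called, and limma adjusted p was larger for each called gene named. It was 7.43e-07 rather than 5.06e-14 for 878148, and 9.45e-05 rather than 1.37e-08 for 501365. Among the genes named, 501365 lost its call under quantile normalisation (0.74), and no other called gene lost its call or changed sign. Of the 5 uncalled genes named, 848704 and 815445 changed sign under all 3 scalings and without cellulose library b (-0.03 and -0.07), and 872851 without straw library a (0.015). No paired analysis was possible because the recovered libraries carry no replicate numbers. Levels of 13 or more on cellulose, and genes with few reads, are where the depth and the recovery limit these results.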
